A study of Sus scrofa with 36 samples.

Results

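The change in heart gene expression from postnatal day 1 (P1) to day 3 (P3) was measured in domestic Yorkshire pigs that were fed normally with no other treatment named. The study reports that its hearts of each age came from both sexes. The sex of the single hearts compared here is not given in the sample titles. Whole RNA from 3 hearts at P1 and 3 at P3 was cleared of ribosomal RNA and sequenced by CD Genomics with a stranded total RNA kit. Hearts at P7 and P28, 3 at each age, were sequenced in the same batch (batch cd) and served here to estimate the spread between libraries. The members are the 5276 genes that reached 10 counts in 3 or more of the 6 P1 and P3 libraries, out of 9815 genes in the table, which come from chromosomes 1, 2, 6 and 13. Libraries are named by their age and the number 4, 5 or 6 in the column name. Different pigs were used at each age, so the comparison is between animals and not within them.

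At birth the newborn leaves a low-oxygen, placenta-fed environment for air and milk, and its left ventricle then pumps against a higher systemic pressure. Cardiomyocytes then move from glucose and lactate toward fatty acids as fuel and withdraw from the cell cycle. In newborn pigs the heart can replace lost muscle only in the earliest days of life, which is why the first days are compared.

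The 6 libraries held between 8887176 and 14883849 counts. Library 4 of P1 and library 5 of P3 stood apart. The mean Pearson correlation of log2 levels with the other libraries of its age was 0.966 for library 5 of P3, against 0.972 and 0.973 for the other P3 libraries, and 0.980 for library 4 of P1, against 0.985 and 0.986. Genes of the signal recognition particle RNA took 19.5% of the counts in library 4 of P1 and 12.9% to 16.2% in the other 5. Defining heart muscle transcripts were abundant in each library. ACTC1, the cardiac actin, lay between 18580 and 22810 CPM. CPM are counts per 1000000, which were taken over the genes tested and scaled by the trimmed mean of M-values (TMM). The summed level of 3 tested fibroblast markers was 2715 CPM in library 5 of P3 and between 754.8 and 1198 CPM in the other 5 libraries. COL5A1 alone gave 2292 CPM of it, while FBLN2 was at 385.4 CPM there and 222.8 to 354.5 CPM elsewhere, and TCF21 lay within the range of the other libraries. For the 2 tested markers of smooth muscle and pericytes it was 1209 CPM in that library and 348.1 to 564.4 CPM in the others. Results that rest on that library are given with and without it.

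Between P1 and P3, 561 genes changed, 385 higher and 176 lower at P3. A call needed an unadjusted p no greater than 0.05 in edgeR's quasi-likelihood test together with a log2 fold change beyond 0.5 in either direction. These calls were 10.6% of the genes tested, 7.3% higher and 3.34% lower. After Benjamini-Hochberg adjustment over all genes, 2 genes (0.0379%) had an edgeR adjusted p under 0.05, and 29 lay under 0.1, of which 19 were higher and 10 lower at P3. DESeq2's Wald test gave 123 genes with an adjusted p under 0.05. The unadjusted p was 0.05 or less for 812 genes. The median log2 fold change over all genes was 0.02. All 3 P3 libraries lay above all 3 P1 libraries in 463 genes (8.78%) and below them in 407 (7.71%), and this held for 232 of the 385 genes called higher and 137 of the 176 called lower. The 2 ages took up 29.9% of the variance among the 6 libraries, more than in any other split into 3 and 3 (one-sided exact permutation test over 10 splits, p = 0.1, the smallest p this design can give). In bulk tissue, fewer cells of a type and less RNA per cell cannot be told apart, and this holds for each change below.

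**Figure D1:**
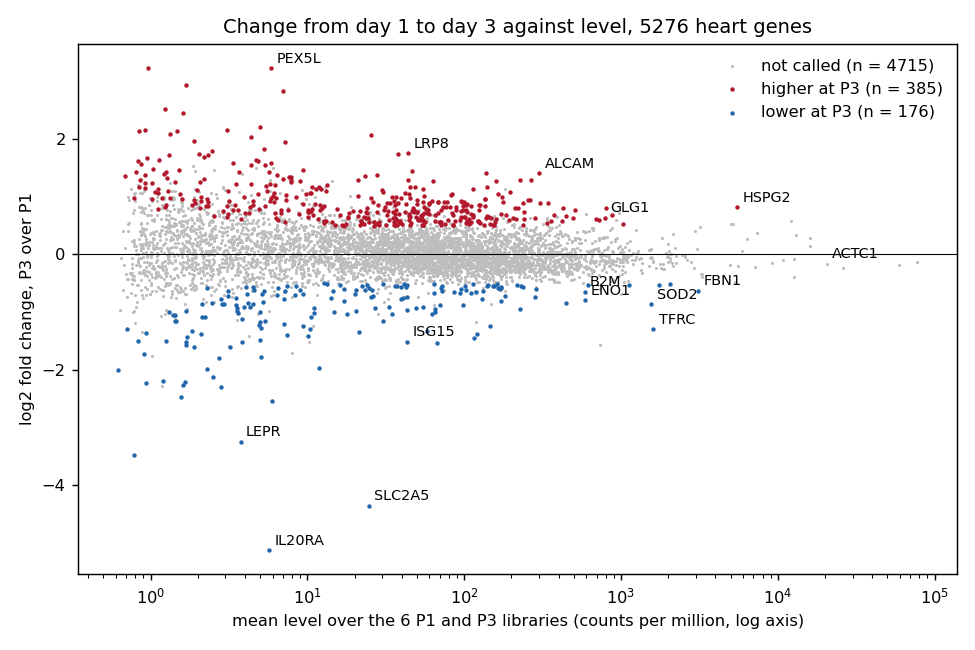
Log2 fold change from P1 to P3 (vertical axis) against the mean level over the 6 libraries in CPM (horizontal log axis) for 5276 genes, with 385 genes called higher in red, 176 called lower in blue and 4715 not called in grey. SLC2A5, IL20RA and LEPR lie lowest among the labelled genes, and ACTC1, an abundant muscle gene, lies near 0.

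The direction of the calls depended on 1 library. Without library 5 of P3, 168 genes (3.18%) were called higher and 191 (3.62%) lower, so that 53.2% of the calls were lower. With all libraries, that library held the highest of the 3 P3 values in 75.6% of the genes called higher and in 39% of the genes not called. Library 4 of P1 held the highest P1 value in 57.4% of the genes called lower and in 39.4% of those not called. Without library 5 of P3, 141 of the 385 higher and 117 of the 176 lower genes were still called, and 2 of the 561 changed sign. In all 6 fits that each left out 1 of the libraries, 89 of the higher and 67 of the lower genes were called.

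**Figure D2:**
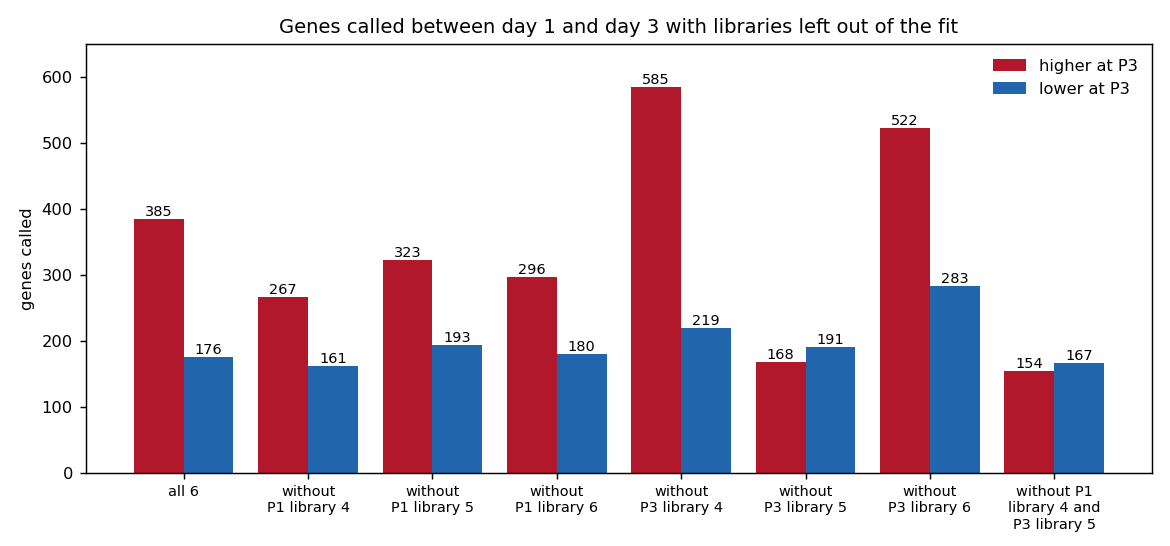
Number of genes called higher (red) and lower (blue) at P3 with all 6 libraries and with libraries left out of the fit. The bars for higher genes reach 585 without library 4 of P3 and 168 without library 5 of P3, while the bars for lower genes stay between 161 and 283.

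SLC2A5 had the smallest p of all genes. It encodes GLUT5, the fructose transporter. Its level was 82.6, 29.7 and 28.4 CPM in the 3 P1 hearts and 1.65, 3.98 and 1.40 CPM in the 3 P3 hearts. The lowest P1 value was several times the highest P3 value. The mean fell from 46.9 ± 31.0 to 2.35 ± 1.42 CPM (SD, n = 3 at each age), a 20.6-fold drop (log2 fold change -4.37 ± 0.49 SE, edgeR adjusted p = 0.00501). The adjusted p was at most 0.0497 in all alternatives run, and the level was lower still at P7 (0.515 CPM) and P28 (0.141 CPM). The gene lies at chr6:69507825-69535372.

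LEPR, the leptin receptor (chr6:146798979-146896108), came next among the lower genes. Its level was 6.98, 7.25 and 6.08 CPM at P1 and 0.917, 0.844 and 0.390 CPM at P3. The groups were far from overlapping, with a 9.55-fold drop (log2 fold change -3.26 ± 0.51 SE, edgeR adjusted p = 0.0516). The mean was 9.18 CPM at P7 and 3.90 CPM at P28, so the P3 hearts held the lowest values of the 4 ages. IL20RA, a subunit of receptors for interleukins of the IL-20 family, was at 3.94, 13.4 and 16.01 CPM at P1 and 0.275, 0.121 and 0.468 CPM at P3. That is 35.1-fold lower in the fit (log2 fold change -5.13 ± 1.02 SE, edgeR adjusted p = 0.0736), but the P3 level rests on few reads. MYOZ3, a Z-disc protein of the calsarcin family, fell 5.55-fold from 2.64 ± 1.25 to 0.465 ± 0.0907 CPM (SD, n = 3 at each age) on 4, 4 and 7 counts at P3, and was at 5.12 CPM at P7.

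TFRC was an abundant gene called lower. It encodes the transferrin receptor, through which cells take up iron, and it lies at chr13:133970594-134000278. Its level was 2843, 1839 and 2173 CPM at P1 and 1253, 577.0 and 954.3 CPM at P3. Each P1 heart was above each P3 heart, and the mean fell 2.46-fold (log2 fold change -1.30 ± 0.24 SE, edgeR adjusted p = 0.0673). SOD2, the superoxide dismutase of mitochondria, was at 2378, 1869 and 1800 CPM at P1 and 1098, 886.2 and 1336 CPM at P3, a 1.82-fold fall without overlap (log2 fold change -0.86 ± 0.24 SE, edgeR adjusted p = 0.162). SOD2 shares positions with WTAP, whose level was lower (152.9 CPM). SMAD7, an inhibitor of TGF-beta signalling, fell from 118.4, 74.5 and 68.1 CPM to 42.4, 51.0 and 37.9 CPM (1.99-fold, edgeR adjusted p = 0.0985). TOPAZ1, a gene best known from germ cells, fell with a log2 fold change of -0.97 ± 0.21 SE, and PLSCR4, a scramblase-family membrane protein, with one of -0.80 ± 0.18 SE. The calls of these genes held with each library left out, but SOD2 was not called without library 4 of P1 and library 5 of P3 together.

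LRP8 had the smallest p of the higher genes. It encodes the apolipoprotein E receptor 2, a receptor of the LDL receptor family. Its level was 20.3, 23.2 and 16.2 CPM at P1 and 53.5, 66.0 and 82.6 CPM at P3. The lowest P3 heart was more than 2-fold above the highest P1 heart, and the mean rose 3.38-fold, from 19.9 ± 3.53 to 67.3 ± 14.6 CPM (SD, n = 3 at each age; log2 fold change 1.76 ± 0.23 SE, edgeR adjusted p = 0.0123). The mean stayed near that level at P7 (67.5 CPM) and P28 (61.4 CPM). The edgeR adjusted p reached 0.107 when single libraries were left out. LRP8 lies at chr6:158905460-158982873.

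ALCAM, a cell adhesion molecule of the immunoglobulin family (chr13:153794991-153998208), was at 141.7, 182.5 and 170.9 CPM at P1 and 503.8, 301.7 and 507.4 CPM at P3. It rose 2.65-fold without overlap (log2 fold change 1.41 ± 0.23 SE, edgeR adjusted p = 0.0637), and library 5 was the lowest of the P3 values. PEX5L, which helps traffic HCN pacemaker channels, rose 9.38-fold from 0.594, 1.15 and 1.64 CPM to 15.6, 9.77 and 6.47 CPM. EXTL1, an enzyme of the exostosin family of heparan sulfate synthesis, rose 4.19-fold from 9.76 ± 4.01 to 40.9 ± 9.09 CPM (SD, n = 3 at each age), with a mean of 33.6 CPM at P7 and 4.88 CPM at P28. In these genes, too, each P3 heart was above each P1 heart.

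GLG1, a Golgi glycoprotein, was the most abundant of the 12 protein-coding genes with the smallest p in this direction. It rose 1.55-fold, from 618.4 ± 28.1 to 959.7 ± 140.2 CPM (SD, n = 3 at each age; edgeR adjusted p = 0.072). Log2 fold changes of the others were 1.04 for LRP3, a receptor related to the LDL receptor, 1.28 for AFAP1L1, an actin-associated protein, 1.12 for LURAP1, a regulator of actomyosin, and 1.08 for FLT4, the lymphatic receptor VEGFR3. Those of the low genes SSUH2 (2.52) and C1orf210 (2.93) rest on P1 levels under 1 CPM. EPB42, a red cell membrane protein, rose 4.09-fold from 1.71 ± 0.665 to 7.07 ± 1.66 CPM (SD, n = 3 at each age), while the other tested red cell markers BLVRB and TAL1 had log2 fold changes of 0.34 and -0.07 and were not called. Each of these 12 genes, LRP8 and ALCAM included, was called with each library left out.

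**Figure D3:**
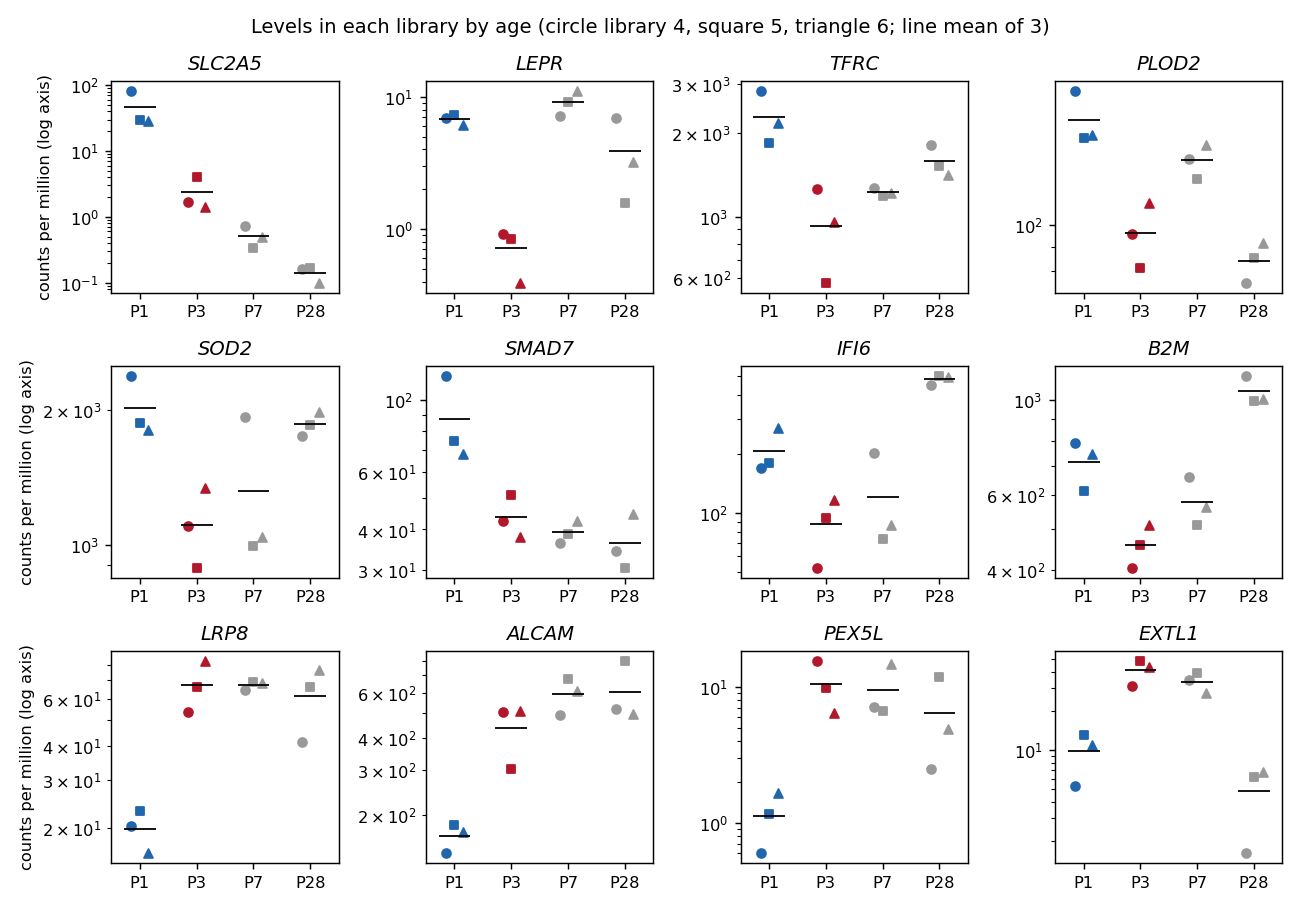
Levels of 12 genes in CPM (vertical log axis, own scale in each panel) in the 3 libraries of each age (circle library 4, square library 5, triangle library 6), with lines at the mean of 3. P1 is blue, P3 red and the later ages grey. SLC2A5 goes on falling after P3, LEPR is lowest at P3, and the 4 genes of the bottom row are higher in each P3 heart than in any P1 heart.

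In the list of the interferon response, many members were lower at P3. Interferons are the signalling proteins of antiviral defence. The list holds genes induced by them, and also receptor chains and an upstream transcription factor. It was not tested as a set. Of 21 tested members, 11 were called lower and 0 higher, against 3.34% lower among all genes, and the median log2 fold change was -0.64, against 0.02 over all genes. In 12 of the 21, all 3 P3 hearts lay below all 3 P1 hearts, against 7.71% of all genes. Leaving out 1 library left between 8 and 11 members called lower, leaving out library 4 of P1 together with library 5 of P3 gave 13, and 7 were called in all 6 of the single leave-outs. The same 11 were those with an unadjusted p of 0.05 or less, 0 of the 21 had an edgeR adjusted p under 0.05, and 0 were called higher in any of these fits.

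ISG15, a ubiquitin-like protein, was at 49.7, 68.1 and 73.3 CPM at P1 and 9.27, 27.6 and 29.9 CPM at P3 (log2 fold change -1.52 ± 0.50 SE, edgeR adjusted p = 0.228). IFI6, an interferon-induced mitochondrial protein, fell from 169.9, 178.6 and 270.3 CPM to 52.3, 93.8 and 116.5 CPM (log2 fold change -1.24 ± 0.36 SE, edgeR adjusted p = 0.187). B2M, the light chain of MHC class I, fell from 791.3, 611.6 and 746.2 CPM to 404.4, 458.8 and 509.8 CPM (log2 fold change -0.65 ± 0.14 SE, edgeR adjusted p = 0.103). In each of these genes the groups did not overlap. IFI44L and IFI44 had log2 fold changes of -0.88 and -0.94, and the scramblase PLSCR1 one of -0.76. PARP14, PARP9 and DTX3L, which act together in ADP-ribosylation and ubiquitin signalling, had log2 fold changes of -0.95, -0.57 and -0.57, and are the 3 tested genes of a stretch at chr13:137809503-138002024. UBE2L6, the ISG15-conjugating enzyme, was at -0.74 and IFNGR1, a chain of the interferon gamma receptor, at -0.51. DTX3L and IFNGR1 were not called without library 5 of P3 (log2 fold changes -0.58 and -0.30).

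The antiviral GTPases MX1 and MX2 were not called (log2 fold changes -0.89 and -0.64), with 59.6 to 101.8 CPM for MX1 at P1 and 20.6 to 66.3 CPM at P3, so that the ages overlapped. The receptor chains IFNAR1 and IFNAR2 had log2 fold changes of -0.12 and -0.03, and IRF3, a transcription factor upstream of interferon, one of 0.18. The summed level of the 21 genes was 2409 to 2845 CPM at P1, 1509 to 1962 CPM at P3, 1798 to 2583 CPM at P7 and 3442 to 4190 CPM at P28, so the P3 hearts lay below all P1 hearts, and P28 held the highest values. IFI30 and MPEG1, which are not in the list and were picked after their values were seen, were also called lower with each library left out (log2 fold changes -0.61 and -0.87). MPEG1 is known from macrophages. Of 8 tested macrophage markers, 0 were called by edgeR and 1 by DESeq2, and 1 had an unadjusted edgeR p of 0.05 or less, with a median log2 fold change of -0.20. C1QC was the most abundant of them (log2 fold change -0.48, 154.5 to 220.0 CPM at P1 and 130.4 to 143.0 CPM at P3), and the summed level of the 8 was 512.6 to 715.5 CPM at P1 and 493.8 to 638.6 CPM at P3. The part of immune cell content in the interferon result was not tested.

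**Figure D4:**
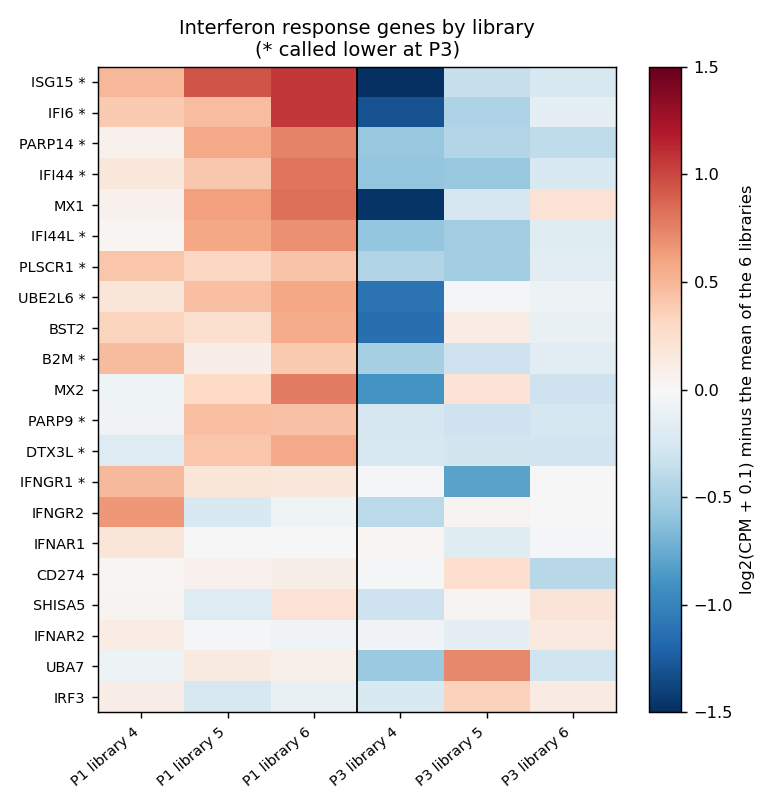
Level of the 21 interferon response genes in the 6 libraries, as log2(CPM + 0.1) minus the mean of the 6, red above and blue below it, ordered by log2 fold change. The 11 genes marked with a star were called lower at P3, and ISG15 and MX1 are lowest in library 4 of P3.

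Genes known as targets of hypoxia were the other group with many lower members. Of 17 tested, 6 were called lower and 0 higher, against 3.34% lower and 7.3% higher among all genes, with a median log2 fold change of -0.36, and 4 to 8 were called lower with 1 library left out. TFRC is the most abundant of the 6. PLOD2, a lysyl hydroxylase of collagen (chr13:86401244-86513105), fell from 190.4, 151.6 and 153.6 CPM to 95.8, 81.3 and 111.0 CPM without overlap (1.72-fold, log2 fold change -0.78 ± 0.15 SE, edgeR adjusted p = 0.0673). AK4, an adenylate kinase of mitochondria, fell from 61.0, 29.4 and 34.7 CPM to 16.3, 17.5 and 22.3 CPM (2.23-fold, edgeR adjusted p = 0.0933). The glycolytic enzyme ENO1 was at 1042, 555.6 and 660.6 CPM at P1 and 307.2, 388.6 and 599.8 CPM at P3, which overlapped (log2 fold change -0.80 ± 0.25 SE, edgeR adjusted p = 0.197). The other 2 called members were ERO1A, an oxidoreductase of the endoplasmic reticulum, and CP, ceruloplasmin, at log2 fold changes of -0.65 and -1.08, of which CP was not called without library 5 of P3 (-1.02). VLDLR, the most abundant member not called, had one of -0.12, and HIF1A, the hypoxia-regulated factor itself, one of -0.36 with overlapping ages. CA9, a carbonic anhydrase often used to mark hypoxia, was at -0.09 and not called. In TFRC, PLOD2, AK4 and ENO1, library 4 of P1 was the highest of the 6, and without it 4 members were called lower.

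Of 19 tested genes of glycolysis and glycogen, 2 were called lower (SLC2A5 and ENO1) and 1 higher, against 3.34% and 7.3% of all genes, with a median log2 fold change of -0.06. The higher gene was PYGM, the muscle glycogen phosphorylase (log2 fold change 0.53 ± 0.19 SE), at 637.8 to 971.2 CPM at P1 and 908.8 to 1597 CPM at P3. PYGM was not called without library 5 of P3 (log2 fold change 0.27) or without library 4 of P1. GPI, the most abundant member not called, had a log2 fold change of -0.01 ± 0.14 SE. An entry named LDHB, after the heart chain of lactate dehydrogenase, was at -0.22 and not called. This entry covers 1360 bases without an intron, and whether it is the gene that makes that chain was not tested.

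Of 27 tested genes of fatty acid oxidation and lipid droplets, 4 were called higher and 1 lower, against 7.3% and 3.34% of all genes, with a median log2 fold change of 0.07. The 4 were PPARGC1B, a coactivator of mitochondrial genes, RXRA, the nuclear receptor partner of the PPARs, LIPE, the hormone-sensitive lipase, and CRAT, carnitine acetyltransferase. PPARGC1B was at 121.9, 122.9 and 101.4 CPM at P1 and 153.6, 371.9 and 169.7 CPM at P3 (log2 fold change 1.00 ± 0.30 SE, edgeR adjusted p = 0.193). RXRA was at 100.1, 119.5 and 101.2 CPM at P1 and 125.1, 372.8 and 163.8 CPM at P3 (log2 fold change 1.04 ± 0.32 SE, edgeR adjusted p = 0.196). In both, each P3 heart lay above each P1 heart, but library 5 was more than 2-fold above the other P3 hearts. Without library 5 of P3, 0 of the 27 were called higher. FABP3, the fatty acid carrier of heart muscle, was the lower gene (3113, 1890 and 2253 CPM at P1 and 1379, 1303 and 2416 CPM at P3, log2 fold change -0.51 ± 0.23 SE), and its call was lost without that library (-0.36). The beta-oxidation enzyme ACAA2 had a log2 fold change of 0.03 ± 0.13 SE, and ACADM, an acyl-CoA dehydrogenase, one of -0.30 that was not called.

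Of 32 tested respiratory chain genes, 1 was called lower and 0 higher, against 3.34% and 7.3% of all genes. It was NDUFA2, a subunit of complex I, at 273.9, 291.7 and 280.1 CPM at P1 and 157.0, 159.8 and 252.2 CPM at P3 (log2 fold change -0.57 ± 0.18 SE, edgeR adjusted p = 0.219). ATP5F1A, the alpha subunit of ATP synthase and the most abundant member, had a log2 fold change of -0.22 ± 0.16 SE. The median over the list was -0.07. NDUFA2 was not called without library 5 of P3 (log2 fold change -0.47) or library 4 of P3, and with 1 library left out 0 to 5 of the 32 were called lower and 0 to 1 higher. Of 13 antioxidant and metal-binding genes, SOD2 and SESN2, a stress-induced regulator of mTORC1, were called lower and 0 higher, against 3.34% and 7.3% of all genes, and 1 to 2 were lower with 1 library left out, while FTL, the ferritin light chain that stores iron, had 699.0 to 815.3 CPM at P1 and 582.7 to 646.9 CPM at P3 (log2 fold change -0.29 ± 0.11 SE), a change below the size that a call needs. Neither the 25 tested genes of cytosolic ribosomal proteins nor the 20 of mitochondrial ones held a gene called by edgeR, DESeq2 or limma voom, with medians of -0.12 and -0.01 and 1 gene in each list with an unadjusted edgeR p of 0.05 or less. With 1 library left out, 0 to 1 genes of each list were called lower and 0 higher. MRPL39, of the large mitochondrial subunit, had a log2 fold change of -0.38.

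FBN1, the fibrillin of elastic microfibrils, was the most abundant gene of the matrix lists called lower, at 3573, 3720 and 3988 CPM at P1 and 1872, 2645 and 2772 CPM at P3 (1.55-fold, log2 fold change -0.63 ± 0.15 SE, edgeR adjusted p = 0.125). FSTL1, a secreted glycoprotein known for its role in heart repair, was at 2046, 2042 and 2081 CPM at P1 and 1198, 1350 and 1710 CPM at P3 (1.45-fold, edgeR adjusted p = 0.127). The P1 values of FSTL1 lay close together, with an SD of 21.0 CPM, and neither gene overlapped between the ages. At P7 the means were 3935 CPM for FBN1 and 2059 CPM for FSTL1, near those at P1. Among 28 tested genes of microfibrils, matricellular proteins and TGF-beta matrix signalling, these 2 were lower and 4 were higher, against 3.34% and 7.3% of all genes, and the median was -0.03. Without library 4 of P3 neither FBN1 nor FSTL1 was called, and with 1 library left out 2 to 5 genes of the list were lower and 2 to 7 higher.

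The 4 higher genes were THBS4, a thrombospondin, TGFB1, the growth factor TGF-beta 1, HAS3, a hyaluronan synthase, and HSPG2, perlecan of the basement membrane. THBS4 rose from 27.8, 19.5 and 20.9 CPM to 49.4, 32.9 and 33.5 CPM (log2 fold change 0.76 ± 0.22 SE, edgeR adjusted p = 0.175). HSPG2 was at 4014, 4226 and 3729 CPM at P1 and 4261, 11390 and 5461 CPM at P3, again with library 5 far above the others (log2 fold change 0.82 ± 0.30 SE). TGFB1 was at 44.8, 43.0 and 42.9 CPM at P1 and 52.7, 99.5 and 62.4 CPM at P3, with the highest value in library 5. TGFB1 and HSPG2 were not called without library 5 of P3 (log2 fold changes 0.39 and 0.28), and THBS4 and HAS3 were. LAMB2, a laminin chain and the most abundant member not called, had a log2 fold change of 0.41. CCN2, a matricellular target of TGF-beta and mechanical load, had one of -1.17 that was not called, with 315.8 CPM in library 4 of P1 and 34.2 to 105.6 CPM in the other 5.

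Of 20 tested collagens and collagen-modifying enzymes, 4 were called lower and 1 higher, against 3.34% and 7.3% of all genes, with a median of -0.04, and with 1 library left out 3 to 4 were lower and 1 to 4 higher, 4 without library 4 of P3. Beside PLOD2, the lower genes were TIMP4, a metalloproteinase inhibitor, COL8A1, a short-chain collagen, and COL23A1, a transmembrane collagen, which was not called without library 5 of P3 (log2 fold change -0.45). TIMP4 was at 27.6, 30.8 and 31.0 CPM at P1 and 19.5, 19.2 and 20.6 CPM at P3, with little spread within either age (log2 fold change -0.59 ± 0.16 SE, edgeR adjusted p = 0.161). COL27A1, a fibrillar collagen, was higher (18.1, 31.0 and 21.2 CPM at P1 and 45.0, 53.8 and 32.4 CPM at P3, log2 fold change 0.90 ± 0.24 SE). COL5A1, the most abundant collagen not called, was at 706.8, 807.9 and 693.0 CPM at P1 and 501.2, 2292 and 841.9 CPM at P3. Library 5 of P3 was thus the highest and library 4 of P3 the lowest of the 6.

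Of 23 tested secreted factors and receptors, 6 were called higher and 0 lower, against 7.3% and 3.34% of all genes, with a median of 0.22, but 1 was left without library 5 of P3. FLT4 was the one that remained, at 22.9, 19.5 and 16.01 CPM at P1 and 26.2, 51.9 and 45.4 CPM at P3 (log2 fold change 1.08 ± 0.23 SE, edgeR adjusted p = 0.0933). The others were DLL1, a Notch ligand, NOTCH3, the Notch receptor of mural cells, HEYL, a Notch target, PDGFRB, the PDGF receptor of pericytes, and TIE1, an endothelial receptor. NOTCH3 was at 168.2, 196.6 and 154.3 CPM at P1 and 153.4, 601.7 and 247.1 CPM at P3, and PDGFRB at 228.6, 221.1 and 193.8 CPM at P1 and 269.0, 607.7 and 317.3 CPM at P3. In both genes library 5 was far above the other P3 hearts. NPPB, the natriuretic peptide BNP of strained heart muscle, was not called (log2 fold change -1.58 ± 1.01 SE), with 2999, 59.3 and 249.8 CPM at P1 and 165.9, 186.8 and 755.7 CPM at P3. Library 4 of P1 was by far the highest of the 6, and the ages overlapped. With 1 library left out, the log2 fold change of NPPB ran from -2.645 to 1.242, so its direction was not kept.

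Of 25 tested sarcomere genes, 2 were called lower and 0 higher, against 3.34% and 7.3% of all genes, MYOZ3 and TMOD3, which caps actin filaments (log2 fold change -0.51 ± 0.13 SE), and the median was -0.06. TMOD3 was at -0.41 and not called without library 5 of P3, and with 1 library left out 1 to 3 genes of the list were called lower and 0 to 3 higher. ACTC1 had a log2 fold change of -0.17 ± 0.17 SE, and of the 5 tested cardiomyocyte markers 0 were called by edgeR, DESeq2 or limma voom. MYL3 and MYBPC3, a light chain and a binding protein of cardiac myosin, had log2 fold changes of 0.34 and 0.29 without overlap between the ages, under the size that a call needs. Among 27 genes of calcium handling, ion channels and the intercalated disc, CACNA2D2 and CACNG6, both auxiliary subunits of calcium channels, were called higher. Of the rest, 1 gene was called lower, and both counts lay near the shares over all genes (7.3% and 3.34%). With 1 library left out, 2 to 5 were called higher and 0 to 2 lower. CACNA2D2 was at 2.15, 1.51 and 2.63 CPM at P1 and 5.14, 4.70 and 4.83 CPM at P3, with a narrow spread at P3 (log2 fold change 1.22 ± 0.27 SE, edgeR adjusted p = 0.108). GJA1, the main gap junction protein of the ventricle, had a log2 fold change of -0.24 ± 0.15 SE and was not called.

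Of 30 tested entries of the mitosis list, in which CDC25C stands with 2 gene IDs, INCENP, a chromosomal passenger protein, was called higher (log2 fold change 0.63 ± 0.28 SE) and 0 were called lower, against 7.3% and 3.34% of all genes, with a median of -0.13. With single libraries left out, INCENP kept its call in 2 of 6 cases, and not without library 5 of P3 (0.56). The summed level of the list was 1271 to 1591 CPM at P1 and 1004, 973.2 and 2107 CPM at P3, so the 3 P3 hearts spanned a wider range than the P1 hearts and lay on both sides of them. Without library 6 of P3, the highest of the 6, 16 of the 30 were called lower, and without any other single library 0 were. At P7 the sums were 3149 to 3884 CPM and at P28 749.2 to 1224 CPM. Of 23 DNA replication genes, LIG1, the replicative DNA ligase, was called higher (log2 fold change 0.70 ± 0.24 SE) and 0 lower, against 7.3% and 3.34% of all genes, and the median was 0.13. LIG1 was not called without library 5 of P3 (0.53) or without library 4 of P1, and with 1 library left out 0 to 4 of the 23 were called higher and 0 to 2 lower. The abundant members SMC4, of the condensin complex, and USP1, a deubiquitinase, had log2 fold changes of -0.25 and -0.12 and were not called.

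The counts of the remaining lists stand against 7.3% called higher and 3.34% lower among all genes. NR4A3, an orphan nuclear receptor induced within minutes by many stimuli, was the 1 of 20 immediate early and stress-induced genes called, at 141.2, 52.9 and 107.9 CPM at P1 and 18.6, 29.1 and 55.4 CPM at P3 (log2 fold change -1.54 ± 0.46 SE, edgeR adjusted p = 0.193), whereas JUN had one of 0.32 and was not called. With 1 library left out, 1 to 4 genes of that list were called lower and 0 to 2 higher, and without library 4 of P1 and library 5 of P3 together NR4A3 was not called. ARNTL, the clock gene BMAL1, was the 1 of 7 clock genes called lower (log2 fold change -0.77 ± 0.27 SE). SLC7A5, which brings large neutral amino acids into cells, rose from 17.2, 8.90 and 13.4 CPM to 25.9, 23.6 and 51.7 CPM without overlap (log2 fold change 1.36 ± 0.34 SE, edgeR adjusted p = 0.135), and of 11 genes of the amino acid response SESN2 was called lower beside it. HSD11B2, which inactivates cortisol, was the 1 of 11 glucocorticoid targets called higher (log2 fold change 1.19 ± 0.44 SE), and CREB3L1, a stress-linked transcription factor of the endoplasmic reticulum, the 1 of 17 chaperone and unfolded protein genes (1.05 ± 0.37 SE). ACAT2, of cholesterol synthesis, was the 1 of 16 called lower in its list (-0.54 ± 0.23 SE). CREB3L1 and ACAT2 were not called without library 5 of P3 (0.41 and -0.41). With 1 library left out, 0 to 3 chaperone, 0 to 2 clock and 0 to 2 cholesterol and lipid synthesis genes were called lower. In the same order, 0 to 1, 0 and 0 to 1 were called higher. Of 7 imprinted and fetal growth genes, PEG3 and IGF2R were called higher, with log2 fold changes of 0.74 and 0.63, and neither was without library 5 of P3.

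In the clock, glucocorticoid, chaperone, cholesterol and imprinted lists, the most abundant members not called had small log2 fold changes. They were 0.07 ± 0.15 SE for NR1D2, a clock repressor, 0.05 ± 0.13 SE for TRIM63, a muscle ubiquitin ligase induced by glucocorticoids, -0.01 ± 0.13 SE for HSPA9, the mitochondrial HSP70, 0.10 ± 0.22 SE for FADS1, a fatty acid desaturase, and 0.05 ± 0.30 SE for IGF1R, the IGF-1 receptor. The medians over the lists were -0.12 for immediate early genes, -0.25 for the clock, -0.07 for the amino acid response, 0.05 for glucocorticoid targets, -0.10 for chaperones, 0.15 for cholesterol and lipid synthesis and 0.17 for imprinted genes.

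Other libraries, too, decided calls of single list members. Without library 4 of P1, the calls of CACNG6, ARNTL, SESN2, HSD11B2, ERO1A, PGLYRP1 and IRX3 were among those lost. Without library 4 of P3, those of SESN2, HSD11B2, UBE2L6 and ACAT2 were among them. COL8A1, UBE2L6, PARP9, CRAT, TIE1, HEYL and IGF2R were not called without library 5 or without library 6 of P1. ENO1 and COL27A1 kept their calls with each library left out but lost them without library 4 of P1 and library 5 of P3 together.

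**Figure D5:**
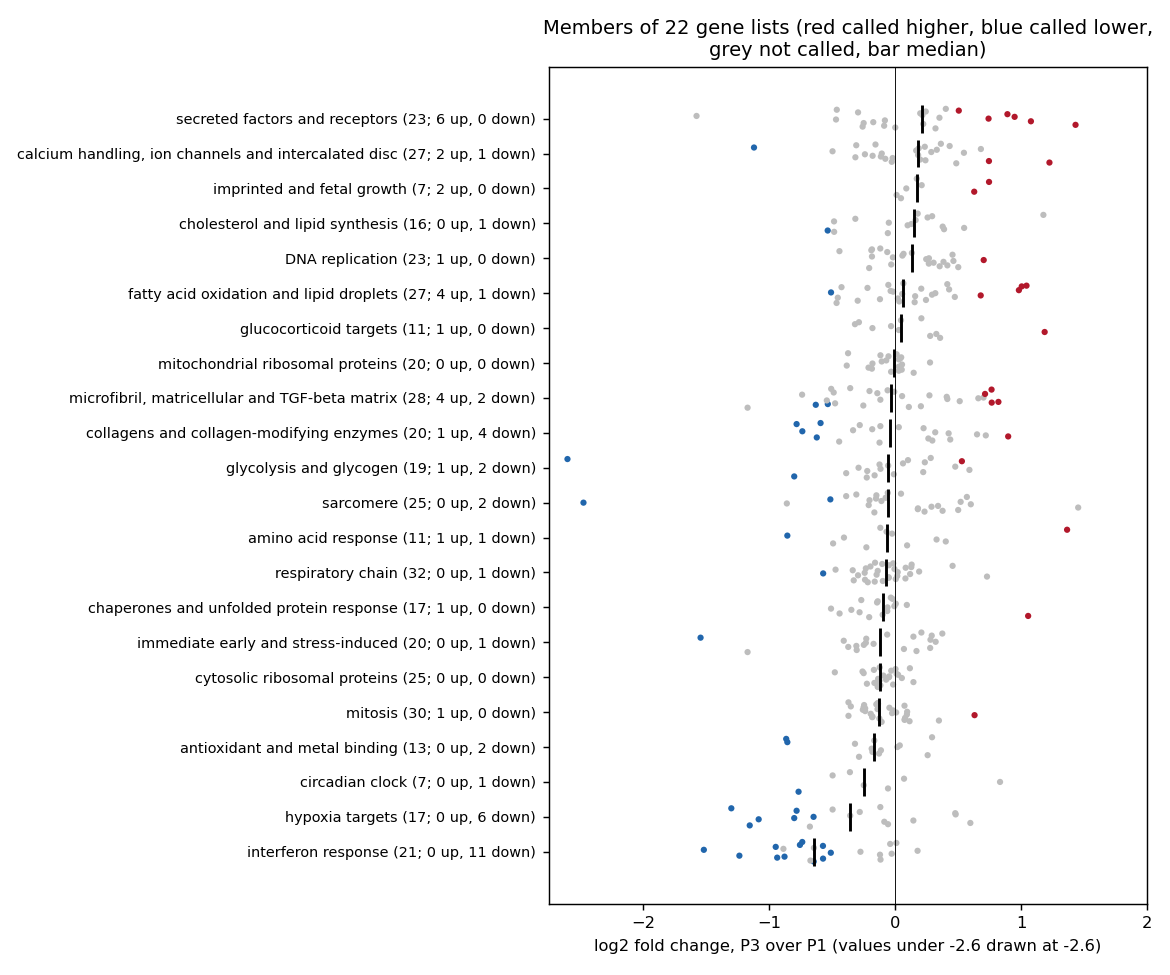
Log2 fold change from P1 to P3 (horizontal axis, SLC2A5 drawn at -2.6) of each tested member of 22 gene lists, ordered by their median (black bar). Red points were called higher, blue points lower and grey points not. The interferon response and hypoxia lists have the lowest medians, -0.64 and -0.36.

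Markers of other cell types gave these counts, against 7.3% called higher and 3.34% lower among all genes. Of 7 tested endothelial markers, FLT4 and TIE1 were called higher, with a median of -0.01. TIE1 had a log2 fold change of 0.50, just past the size for a call, and was not called by DESeq2 or limma voom, with DESeq2 size factors, without a filter on low counts, with the filter taken over all 12 libraries, in the 6 libraries alone or with a block on the library number. CDH5, the endothelial cadherin, was not called (0.28). Both smooth muscle and pericyte markers, PDGFRB and NOTCH3, were called higher and neither was without library 5 of P3. Of 3 neutrophil markers, PGLYRP1 was called higher, with low means of 0.443 CPM at P1 and 1.29 CPM at P3. LTF was at 12.8 CPM in library 6 of P3 and 1.45 to 2.63 CPM in the other 5. Of 3 ventricular markers, IRX3 was called higher (log2 fold change 0.57 ± 0.23 SE) but not without library 5 of P3 (0.38), and HEY2 was not called (-0.47). The 3 fibroblast, 5 lymphocyte, 2 mesothelial, 1 Schwann cell and 1 atrial markers held no gene called by edgeR with all libraries, and 0 adipocyte markers were tested. With 1 library left out, 0 to 1 fibroblast markers were called higher and 0 to 1 lower, and 0 to 1 Schwann cell markers higher. The most abundant lymphocyte, mesothelial and Schwann cell markers, CD79A, TBX18 and CDH19, had log2 fold changes of -0.12, -0.18 and 0.64, and CD79A shares positions with ARHGEF1 and other genes. The atrial marker DKK3 ran from 285.1 to 688.9 CPM over the P3 hearts and 289.0 to 667.9 CPM over the P1 hearts, a spread within each age of over 2-fold. The study describes its samples as taken from the whole organ, with muscle and other cells.

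Long noncoding RNA (lncRNA) genes, which yield transcripts without a known protein, held more calls than their share. Of 514 tested, 52 (10.1%) were called higher and 29 (5.64%) lower, against 7.24% and 3.05% of 4460 protein-coding genes. Without library 5 of P3, the shares were 7.98% and 6.42% for lncRNA genes and 2.71% and 3.3% for protein-coding genes. Most lncRNA genes were low, 347 of them among the 1319 genes with the lowest levels, where 9.22% of lncRNA and 9.53% of protein-coding genes were called higher and 6.63% and 5.22% lower. Without library 5 of P3 these shares were 7.2% and 7.18% higher and 6.63% and 5.35% lower. Among the next 1319 genes by level, 12.1% of lncRNA and 8.09% of protein-coding genes were called higher and 3.23% and 3.43% lower, and without library 5 of P3 these shares were 9.68% and 2.9% higher and 7.26% and 4.05% lower. Of 99 small nucleolar RNA genes, 3 were called higher and 6 lower, against 7.3% and 3.34% of all genes, and 3 and 4 without library 5 of P3. Among them SNORD27, SNORD29 and SNORD31, which lie with 3 further tested genes of the kind between positions 8920141 and 8921917 of chromosome 2, were called lower with overlapping ages and levels under 6 CPM, and 0 of the 3 were called without library 5 of P3.

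A run of lncRNA genes without a symbol on chromosome 2 fell together. Of the 9 tested between positions 114936035 and 115245117, 8 were called lower, 7 of them without library 5 of P3 as well. The run was picked by its calls, so this count is not a test of it. In each of the 8 all 3 P3 hearts lay below all 3 P1 hearts, as in 137 of all 176 genes called lower. ENSSSCG00000051261 was at 3.56, 2.59 and 1.89 CPM at P1 and 0.734, 0.241 and 0.624 CPM at P3 (log2 fold change -2.26 ± 0.53 SE, edgeR adjusted p = 0.108), and ENSSSCG00000049334 at 6.91, 4.31 and 3.37 CPM at P1 and 1.74, 0.724 and 2.18 CPM at P3 (-1.61 ± 0.39 SE, edgeR adjusted p = 0.121). Their means were lower at P7 and P28 than at P1, 0.462 and 0.375 CPM for the former. The remaining gene, ENSSSCG00000050610, had a log2 fold change of -0.97 and was not called. Whether the 9 are separate genes or parts of one long transcript was not tested. ENSSSCG00000050936, the other lncRNA gene among the 3 with the smallest p in this direction, also lies on chromosome 2 and fell from 3.56, 2.87 and 2.71 CPM to 1.38, 1.33 and 1.56 CPM.

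Of the lncRNA genes called higher, ENSSSCG00000050105 on chromosome 13 was at 3.42, 2.23 and 2.63 CPM at P1 and 9.82, 6.03 and 8.27 CPM at P3 (log2 fold change 1.55 ± 0.28 SE, edgeR adjusted p = 0.0673), with means of 12.4 CPM at P7 and 21.5 CPM at P28. ENSSSCG00000045249 on chromosome 6 rose from 13.6, 11.9 and 11.2 CPM to 25.0, 35.3 and 29.9 CPM (edgeR adjusted p = 0.072). ENSSSCG00000044417 on chromosome 1 was listed at 0, 0.287 and 0.246 CPM at P1 and 1.47, 1.93 and 1.87 CPM at P3. All 3 were above P1 in each P3 heart and were called with each library left out.

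Calls of 1 direction also lay next to each other elsewhere. Runs of 3 or more called genes in 1 direction, with starts within 200000 bases of each other, numbered 34 for higher genes, 19 of them on chromosome 6, and 7 for lower genes. In most of the higher runs other tested genes of the stretch were not called, and in 4 of the 34 and 4 of the 7 all were. Of the 132 genes in the higher runs 32 were still called higher without library 5 of P3, and of the 26 in the lower runs 18 were still called lower, and 4 higher and 3 lower runs kept 3 or more calls. All 5 tested genes at chr6:3246731-3662665, GSE1 and 4 genes without a symbol, were called higher, and 3 of them without that library. AGPAT3, TRAPPC10, PWP2 and ENSSSCG00000044255, the 4 tested genes at chr13:206751103-207042808, were called higher with log2 fold changes of 0.77, 0.51 and 0.69 for the 3 with a symbol, and 2 of the 4 without it. Among the lower runs, PLOD2, PLSCR4 and PLSCR1 are the 3 tested genes of chr13:86401244-86869297, and all 3 were called lower, with log2 fold changes between -0.80 and -0.76. The 3 tested genes at chr1:16043121-16100494, protein-coding and without a symbol, were called lower too, ENSSSCG00000041378 with a log2 fold change of -1.78, ENSSSCG00000004096 with -1.80 and ENSSSCG00000033578 with -0.91. By chromosome, 180 of the 1758 genes tested on chromosome 6 were called higher, as were 8.51% on chromosome 2, 5.44% on chromosome 13 and 4.34% on chromosome 1. Without library 5 of P3 these shares were 3.3%, 3.15%, 3.69% and 2.66%, so that the order of the chromosomes was not kept. The shares called lower were 2.56%, 3.68%, 3.78% and 3.71%.

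Of the 5 genes that the study names in its text and that the table holds, 0 were called by edgeR, DESeq2 or limma voom, and 1 had an unadjusted edgeR p of 0.05 or less. The study names RNF13, KIF1B, CDH13 and CDC42 through circular RNAs (circRNAs) made from them, whose levels it compared across ages. It names MME for its level in cultured human cardiomyocytes. The counts here cover whole genes, so they do not measure those circRNAs. RNF13, a ubiquitin ligase, had a log2 fold change of -0.30 ± 0.12 SE with each P3 heart below each P1 heart, at 110.8 to 123.1 CPM at P1 and 79.9 to 105.5 CPM at P3. KIF1B, a kinesin motor, was at -0.14 ± 0.13 SE and likewise did not overlap. CDC42, a small GTPase of the actin cytoskeleton, was at -0.23 ± 0.18 SE, CDH13, a cadherin without a cytoplasmic tail, at -0.05 ± 0.13 SE, and MME, the peptidase neprilysin, at 0.35 ± 0.27 SE. MME had means of 45.2 CPM at P7 and 73.4 CPM at P28, above the 13.6 to 23.7 CPM of the 6 hearts.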

How the data were processed

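Total RNA of 12 pig hearts of batch cd, 3 each at P1, P3, P7 and P28, was analysed. The values are counts of reads per gene, which the authors deposited as raw numbers. Per the submitters' processing notes, STAR 2.7.9a and MultiQC 1.11 were used. The study's methods name Sscrofa 10.2 as the genome of the alignment. The gene counter, its strand setting and the annotation are not given in the sources used here. Positions are printed as deposited, and those of 4524 of 4529 protein-coding genes matched by symbol overlapped the RefSeq gene on Sscrofa 11.1, so they were read as positions on that build. Of the tested genes, 2507 share positions with another gene, among the named genes ALCAM, LRP3, B2M, SOD2, TMOD3 and NDUFA2, and reads of such pairs could not be told apart. The table holds genes of chromosomes 1, 2, 6 and 13, other chromosomes were not analysed here, and 1 line without counts was left out. Its columns carry the age and the numbers 4 to 6, which the sample labels do not use, so a column was tied to its age and not to a pig. There were 0 columns of other samples. The circRNA and miRNA tables were not used here. Symbols came from the table and, for 283 genes, from a reference table of gene names.

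Genes that reached 10 counts in 3 or more of the 6 libraries were tested in R 4.3.3 with edgeR 4.0.16 (TMM normalization, quasi-likelihood test, two-sided), with all 12 libraries in one fit and 8 residual degrees of freedom. The square root of the common dispersion, the typical coefficient of variation between hearts, was 0.209. SE is the log2 fold change divided by the root of the F statistic. The thresholds of a call follow the study's methods. The test was also run on simulated counts without an outlying library, and the outcome is not reported here. The p-values measure the spread between the hearts sampled. DESeq2 1.42.0 and limma 3.58.1 (voom), other filters, the replicate block and leave-one-out fits served as alternatives. Figures were made with matplotlib 3.10.9 (Python 3.11.15).

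Named genes are those with an adjusted p under 0.05, the 12 protein-coding genes with a symbol and the 3 lncRNA genes with the smallest p among those called in each direction, up to 4 called members and the most abundant uncalled member of each of 23 gene lists and 13 cell type lists, and genes the study's text names. Further list members and neighbouring genes were named after their values were seen. The genes tested and the lists were chosen with earlier results of these data known. Gene lists are described by counts and medians and were not tested as sets. Values of some named genes are not reported here.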

Additional observations from a re-analysis of the deposited data

How the results depend on the processing

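Against 561 calls, 385 higher and 176 lower, the normalization, the test, the filter, the samples in the fit and the restriction to protein-coding genes gave between 415 and 713 calls. Leaving out 1 library gave 359 to 805 calls, 168 to 585 higher and 161 to 283 lower. Leaving out library 4 of P1 and library 5 of P3 together, an alternative chosen after seeing the data, gave 321, of which 154 were higher. Genes with an adjusted p under 0.05 numbered 2, and 123 with DESeq2, 19 without a filter on low counts, 4 in the 6 libraries alone, 1 to 16 with 1 library left out and 1 with both libraries left out. A replicate block on the numbers 4 to 6 gave 545 calls and 7 with an adjusted p under 0.05. Same-numbered P1 and P3 libraries did not deviate together (correlations of -0.211, 0.0158 and -0.0171), so the numbers were not taken to pair the hearts. Among the 500 most variable genes, the ages took 35.2% of the variance.

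Of the secreted factors and receptors, 3 were called higher in the 6 libraries alone, 1 without both libraries, and 1 to 6 with 1 left out. For fatty acid oxidation and lipid droplets, 0 were called higher without both libraries, and 0 to 5 with 1 left out, while 0 to 5 were called lower. Without a filter 80 lncRNA genes were called higher and 56 lower, and with at least 50 counts 30 and 10, the filters themselves changing how many are tested. No named gene called in the reported fit changed sign in any alternative. The causes of the other shifts were not tested. Most single genes named here are edgeR calls at an unadjusted p.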
